A study of Mus musculus with 12 samples.

Results

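Cibar1, Phf2, Ptpn9, Dis3l, Lrrc41, Zc3h7b, Msantd3, Zmynd11 and Smo were the genes chosen here because their array signal fell about 4-fold or more on the arrays labelled Zfx ko, under at least 1 of the viruses used. They are 9 genes, each with 1 probe set, of 19938 genes and 35556 probe sets measured. RNA came from c-Kit+ progenitors of the bone marrow of mice given 5 mg of tamoxifen by mouth each day for 3 days, and was hybridised to 12 arrays, 3 in each of 4 groups. All mice carried CreER, a Cre recombinase that is active once tamoxifen binds it; the promoter that drives it is not given in the sources used here. Zfx wt cells came from mice labelled Zfx wt/y CreER and Zfx ko cells from mice labelled Zfx fl/y CreER, so the wt mice also had Cre and tamoxifen. Cells of each genotype received a retrovirus with Myc and a GFP marker or a control retrovirus with GFP. After 48 hours the GFP+ cells were sorted, and they then grew for 4 days in 20% FBS with SCF, IL-6 and IL-3 (10 ng/mL of each) before RNA was taken. The series compares these groups to ask what loss of Zfx does to expression with and without added Myc.

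Zfx is a zinc finger transcription factor encoded on the X chromosome that is needed for the maintenance of blood stem cells, and it binds near the start sites of many genes with CpG-rich promoters. Smo is the membrane protein that passes the Hedgehog signal into the cell, and Cibar1 is a membrane-bending protein found at the base of cilia, the organelles in which that signal is passed on. The other genes act on chromatin (Phf2, Zmynd11), on RNA (Dis3l, Zc3h7b), on phosphotyrosine (Ptpn9) or in protein ubiquitination (Lrrc41). Msantd3 has a domain related to the DNA-binding domain of Myb, and its function is little described.

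The Zfx probe set gave no lower signal on arrays with the ko label. Under the control virus the wt arrays averaged an intensity of 946 ± 72.9 (SD, n = 3) and the ko arrays 1020.6 ± 64.9 (n = 3), a log2 difference of 0.11 (limma adjusted p = 0.619). With the Myc virus the means were 992 ± 26.4 and 1048 ± 63.2 (n = 3 each), a log2 difference of 0.08 (limma adjusted p = 0.789). Where in the transcript this probe set lies is not known here, so it may lie outside the deleted part and check nothing. The names wt and ko below are therefore those of the submitters' labels, and every direction rests on them. Array medians ran from 127 to 137.2 in intensity, correlations of log2 values within a group ran from 0.9846 to 0.9926, and 0 arrays were copies of another. The labels do not say whether arrays of a group came from separate animals or cultures, so p-values measure the spread between arrays, which may be technical. Fewer cells of a type and less RNA per cell cannot be told apart in these pooled cells.

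The promoters of the genes were read as 300-base windows, 250 bases before to 50 bases from the start site on, from RefSeq (build GRCm38.p6). Windows were found for 8 of the 9 genes, 14 in all, since some genes have several start sites; Cibar1 had no entry. They were searched on both strands for AGGCCT, the core of the published ZFX motif, and for CACGTG, the E-box that Myc can bind; each is its own reverse complement. The Dis3l, Msantd3 and Zmynd11 windows below are shown because they hold AGGCCT, printed in capitals, and the Phf2 window because it has the most CpG pairs of the 14 and no AGGCCT. Coordinates are 1-based and each sequence is given 5′ to 3′ on the strand of its gene.
Dis3l, chr9:64340724-64341023, minus strand: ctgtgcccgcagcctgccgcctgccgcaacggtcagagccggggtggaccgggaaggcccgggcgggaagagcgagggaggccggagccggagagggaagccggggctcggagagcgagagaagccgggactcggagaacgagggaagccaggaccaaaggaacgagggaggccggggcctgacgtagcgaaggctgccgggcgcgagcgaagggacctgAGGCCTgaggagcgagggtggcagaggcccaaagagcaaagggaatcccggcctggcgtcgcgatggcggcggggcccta
Msantd3, chr4:48539696-48539995, plus strand: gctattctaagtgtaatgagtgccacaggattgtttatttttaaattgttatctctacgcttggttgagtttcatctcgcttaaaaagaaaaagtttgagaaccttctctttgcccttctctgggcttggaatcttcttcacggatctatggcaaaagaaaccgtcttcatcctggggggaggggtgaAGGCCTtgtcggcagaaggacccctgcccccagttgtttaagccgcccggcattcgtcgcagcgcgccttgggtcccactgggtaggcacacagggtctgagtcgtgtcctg
Zmynd11, chr13:9763761-9764060, minus strand: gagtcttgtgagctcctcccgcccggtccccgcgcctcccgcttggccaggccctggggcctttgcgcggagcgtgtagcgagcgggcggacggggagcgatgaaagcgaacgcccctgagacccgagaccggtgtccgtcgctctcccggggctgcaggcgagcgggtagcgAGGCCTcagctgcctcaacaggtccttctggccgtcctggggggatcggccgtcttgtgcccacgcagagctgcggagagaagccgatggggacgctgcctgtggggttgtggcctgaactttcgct
Phf2, chr13:48870836-48871135, minus strand: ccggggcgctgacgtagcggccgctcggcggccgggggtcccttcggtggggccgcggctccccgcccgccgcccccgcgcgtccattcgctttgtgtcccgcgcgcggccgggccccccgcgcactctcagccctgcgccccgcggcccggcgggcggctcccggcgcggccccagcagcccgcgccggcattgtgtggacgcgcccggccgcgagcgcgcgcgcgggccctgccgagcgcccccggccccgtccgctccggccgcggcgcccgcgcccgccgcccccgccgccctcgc

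AGGCCT began 30 bases upstream of the start site in Dis3l, 62 in Msantd3 and 77 in Zmynd11. A second window of Msantd3 overlaps the first and holds the same site, 197 bases upstream of its own start, and a second window of Zmynd11 holds another site, 209 bases upstream. In all, 3 of the 8 genes (37.5%) and 5 of the 14 windows (35.7%) held it, at 4 distinct sites, against 11.6% of 27025 genes and 10.3% of 32851 windows in the whole table. CACGTG was in 1 window, of Zmynd11 (7.14% of the 14 windows and 12.5% of the 8 genes). In the whole table it was in 7.15% of windows and 8.09% of genes. The windows were rich in CpG: the count per window was 9 to 63 with a median of 27.5, against a median of 7 over all windows and 15 over those of the genes tested here. Their GC content had a median of 67.83%, against 52.67% and 57.33%. These matches describe letters in the windows and were not tested. AGGCCT was not in the windows of Phf2, Ptpn9, Lrrc41, Zc3h7b and Smo, which had 1 window each. Dis3l had 2 windows, Msantd3 3 and Zmynd11 4. Genes with more windows offer more places for a match, so the share of genes with AGGCCT depends on the number of windows.

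Of the genes that act on chromatin, Phf2, a demethylase of a repressive lysine mark on histone H3, fell by a like amount under both viruses. With the GFP virus its intensity was 1766, 1615 and 1857 on the wt arrays and 337, 258 and 264 on the ko arrays. With the Myc virus it was 1629.9, 1486 and 1504 in wt and 243, 228 and 206 in ko. No ko array came near the wt range. This is 6.13-fold lower with GFP (log2 -2.62, SE 0.106) and 6.83-fold lower with Myc (log2 -2.77). Zmynd11, a reader of methylated histone H3 that restrains transcription, differed between the viruses. Its intensity with the GFP virus was 1293, 1168 and 1255 in wt and 226, 245 and 271 in ko, 5.02-fold lower (log2 -2.33, SE 0.254). With Myc it was 1297, 1299.8 and 1387 in wt and 318, 562 and 814 in ko, 2.52-fold lower (log2 -1.33). The Myc ko arrays 2 and 3 lay above every GFP ko array by far, while array 1 stayed close to them, and all 3 were still below all wt arrays. Msantd3 gave 595, 651 and 589 in wt and 121, 129.6 and 82.8 in ko with the GFP virus, 5.60-fold lower (log2 -2.49, SE 0.222). With Myc it gave 883, 918 and 789 in wt and 293, 203 and 151 in ko, 4.14-fold lower (log2 -2.05). Its Myc arrays were higher than its GFP arrays in both genotypes, with no overlap in either.

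Of the genes that act on RNA, Dis3l, a catalytic subunit of the cytoplasmic RNA exosome, had the smallest difference between its falls under the GFP and the Myc virus. With the GFP virus its intensity was 437, 551 and 394 in wt and 105, 92.3 and 97.8 in ko, and with the Myc virus it was 409.6, 453 and 425 in wt and 85.6, 90.4 and 90.4 in ko. The fall was 4.64-fold with GFP (log2 -2.21, SE 0.107) and 4.83-fold with Myc (log2 -2.27). The 3 Myc ko arrays lay within 5 intensity units of each other. Zc3h7b, a zinc finger protein that binds RNA, gave 831, 767 and 884 in wt and 212, 182 and 193 in ko with the GFP virus, 4.23-fold lower (log2 -2.08, SE 0.119). With Myc it gave 1184, 918 and 1254 in wt and 176, 146 and 157 in ko, 6.95-fold lower (log2 -2.80). With Myc its wt arrays were higher than with GFP and its ko arrays lower, in each case without overlap.

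Ptpn9, a tyrosine phosphatase of secretory vesicles, had an intensity of 1049, 1323 and 1100.2 in wt and 209, 279.9 and 209 in ko with the GFP virus, 5.00-fold lower (log2 -2.32, SE 0.200). With Myc it was 993, 1274 and 1130.2 in wt and 136, 243 and 172 in ko, 6.31-fold lower (log2 -2.66). Replicate 2 was the highest array in all 4 groups. Lrrc41, a leucine-rich repeat protein that links elongin and Cullin 5 ubiquitin ligases to their substrates, gave 1430.4, 1729.9 and 1597 in wt and 294, 343 and 325 in ko with the GFP virus, 4.94-fold lower (log2 -2.30, SE 0.111). With Myc it gave 1787, 1817 and 1739.7 in wt and 364, 457 and 337 in ko, 4.66-fold lower (log2 -2.22). The fall of Lrrc41 was thus nearly the same size under both viruses.

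Smo had an intensity of 686, 535 and 725 in wt and 199, 142 and 156 in ko with the GFP virus, 3.92-fold lower (log2 -1.97, SE 0.186). With Myc it was 1205, 981 and 954 in wt and 183, 117 and 151 in ko, 7.05-fold lower (log2 -2.82). The wt arrays were all higher with Myc than with GFP, while the ko arrays of both viruses overlapped. The ko signal of Cibar1 lay below the median of every array (127 to 137.2), and how far it lay above background is not known, so its folds may be understated. Its intensity was 382, 430.4 and 422 in wt and 63.7, 60.5 and 68.9 in ko with the GFP virus, 6.39-fold lower (log2 -2.68, SE 0.165). With Myc it was 410.4, 696 and 450.4 in wt and 57.6, 51.5 and 62.0 in ko, 8.88-fold lower (log2 -3.15). The Myc wt array 2 stood above the other wt arrays. Dis3l likewise lay below the array medians on all 6 ko arrays. Msantd3 did so on GFP ko arrays 1 and 3 (121 and 82.8, beside medians of 137.2 and 131.9). Smo did so on Myc ko array 2 (117, beside a median of 128.0). The same limit applies to those values.

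**Figure D1:**
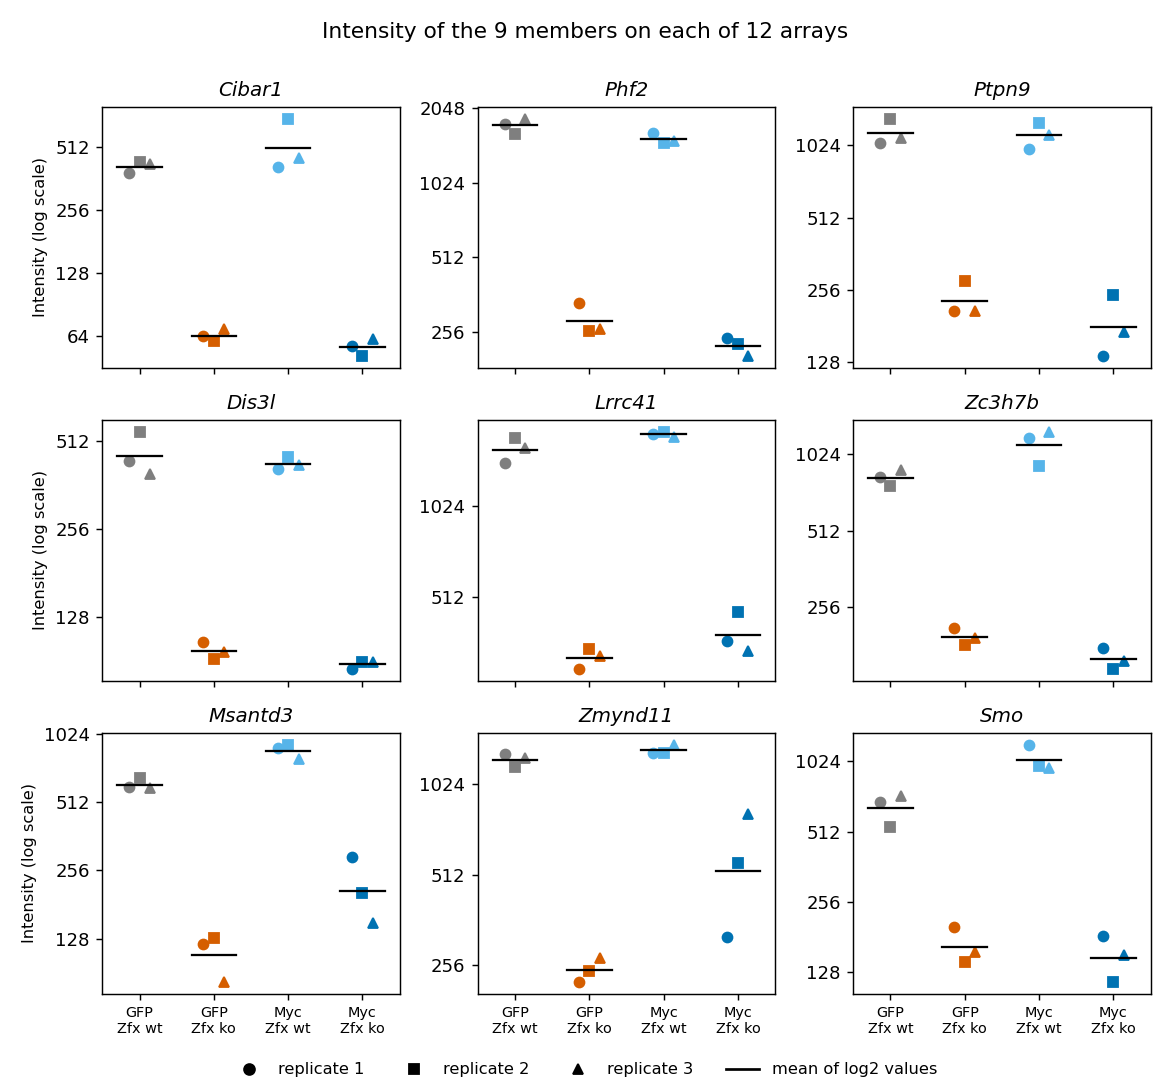
Intensity (log scale) of each gene on each of the 12 arrays, by group on the horizontal axis; symbols are replicate numbers and bars are means of the log2 values of 3 arrays. In every panel the ko arrays sit below all wt arrays of the same virus, and the ko arrays of Zmynd11 with Myc spread from 318 to 814.

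All of these falls are values the genes were chosen on, so they carry no test here. For 9 of 9 genes the 3 ko arrays lay below the 3 wt arrays under each virus, as they did for 10.5% of all genes with GFP and 11.1% with Myc. The limma fit put 9 of 9 past an adjusted p of 0.05 in each comparison, where 2.94% of all genes were lower with GFP and 3.72% with Myc, and 1.17% and 1.74% were higher. The fall was 4-fold or more for 8 genes with GFP, 8 with Myc, 7 under both and 9 under at least 1 virus. Among all genes measured, 16 (0.0802%) fell 4-fold or more under at least 1 virus. The 7 that were not chosen include Akr1c18, a steroid dehydrogenase (9.03-fold), Prss34, a mast cell and basophil protease (8.98-fold), and Terc, the telomerase RNA (7.05-fold). Just inside the threshold of the chosen genes were Dis3l (4.83-fold) and Lrrc41 (4.94-fold), and just outside it lay Npepl1 (3.98-fold), Dipk1b (3.91-fold) and Sccpdh (3.88-fold). The fall was wider with Myc in 6 of the 9 genes and wider with GFP in 3. This count rests on the values of the choice and was not set against all genes, so it shows no trend.

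**Figure D2:**
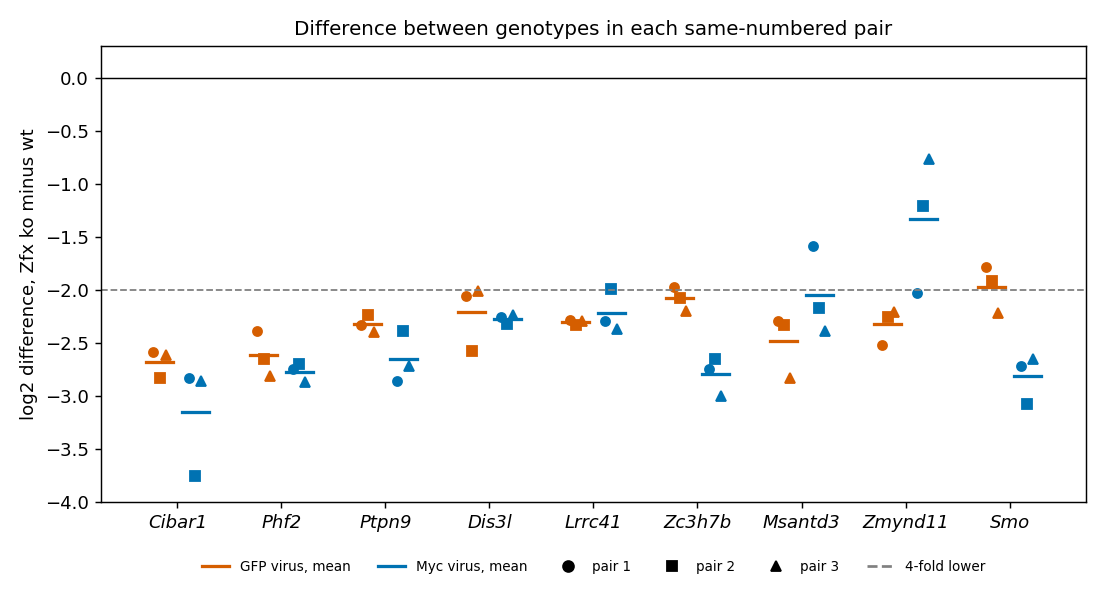
Log2 difference between Zfx ko and wt for each gene in each same-numbered pair of arrays (symbols), with the mean of 3 pairs (bar), for the GFP virus and the Myc virus; the dashed line marks a 4-fold fall. All pairs are below 0, and Zmynd11 with Myc has the smallest mean fall (-1.33).

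The profile of the genes over the 12 arrays is set mainly by the difference between genotypes on which they were chosen, so the likeness given here is a description. With each gene set to its own mean over 12 arrays, the mean of the 9 was 1.06 to 1.11 (log2) on the GFP wt arrays, 1.27 to 1.35 on the Myc wt arrays, -1.29 to -1.19 on the GFP ko arrays and -1.17 to -1.13 on the Myc ko arrays. Likeness to this mean was measured as the mean absolute log2 difference over the 12 arrays. Lrrc41 lay closest to it (0.113) and Zmynd11 farthest (0.391). Of the genes that were not chosen, the 5 most alike were Dipk1b (0.279), Npepl1 (0.283), Terc (0.304), Cltb (0.309) and Sccpdh (0.319). Dipk1b is a divergent protein kinase-like protein, Npepl1 an aminopeptidase-like protein and Cltb a clathrin light chain.

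Whether the Myc virus moved these genes is a question apart from the choice. The mean Myc effect over both genotypes shares no error with the differences between genotypes only where the groups have equal spread. The spread was unequal for Zmynd11, with a log2 SD of 0.68 on Myc ko and 0.055 on Myc wt arrays. It was also unequal for Msantd3, at 0.48 and 0.11 with Myc and 0.35 and 0.08 with GFP, ko and wt. The Myc tests of Zmynd11 and Msantd3 may therefore share error with the choice. By the mean Myc effect, in a fit that did not pair arrays of equal replicate number, Myc raised Msantd3 and Zmynd11 and lowered Phf2. The other 6 genes did not pass the test in that fit. Msantd3 was 1.64-fold higher with Myc (95% interval 1.29 to 2.09, log2 0.71, SE 0.157, limma adjusted p = 0.00774), in 6 of 6 same-numbered pairs. Zmynd11 was 1.51-fold higher (interval 1.15 to 1.99, log2 0.60, SE 0.180, limma adjusted p = 0.0368). It was higher in 6 of 6 pairs, although wt pair 1 differed by only 0.0045 on the log2 scale. Its log2 Myc difference was 0.10 in wt and 1.09 in ko, where the Myc arrays were at 318, 562 and 814. The mean thus describes neither genotype well. Phf2 fell by 0.26 on the log2 scale (interval -0.42 to -0.09, SE 0.0749, limma adjusted p = 0.0313), in 6 of 6 pairs. In this comparison 13.2% of all genes were higher and 8.07% lower, beside 2 and 1 of these 9. The call of Msantd3 held in each of 19 alternative fits, that of Phf2 in 13 and that of Zmynd11 in 9. That of Zmynd11 did not hold without any single GFP array (adjusted p 0.0540 to 0.0828) or without Myc wt 1, 2 or 3 (0.0652, 0.0638, 0.0791) or Myc ko 2 (0.0760). That of Phf2 did not hold without GFP wt 1 (0.0656), GFP wt 3 (0.0785), Myc ko 2 (0.0521), Myc ko 3 (0.0785), Myc wt 2 (0.0682) or Myc wt 3 (0.0708). Only 1 of the 9 genes passed without GFP wt 1, GFP wt 3, Myc ko 2, Myc wt 2 or Myc wt 3.

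The remaining 6 genes did not pass the test. Lrrc41 had 0.21 (interval 0.04 to 0.39, limma adjusted p = 0.0847) and was higher in 6 of 6 pairs; without Myc ko 3 its adjusted p was 0.0412. Smo had 0.27 (-0.02 to 0.56, adjusted p = 0.203). Ptpn9 had -0.20 (-0.51 to 0.11, adjusted p = 0.447). Once equal replicate numbers were fitted as a block, these 3 passed the limma test, with adjusted p of 0.0144, 0.0123 and 0.0416, which makes 6 of the 9 genes. Cibar1 had 0.06 (-0.20 to 0.32, adjusted p = 0.848), Zc3h7b 0.07 (-0.12 to 0.25, adjusted p = 0.732) and Dis3l -0.12 (-0.29 to 0.05, adjusted p = 0.374). All 3 of these intervals include 0.

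**Figure D3:**
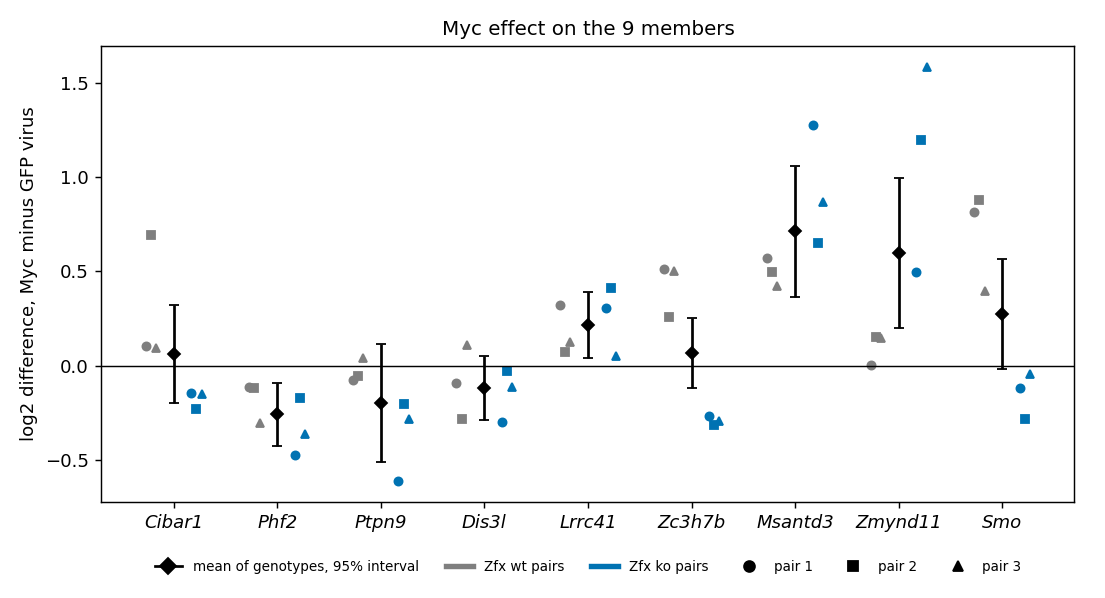
Log2 difference between the Myc and the GFP virus for each gene: symbols are same-numbered pairs, grey for Zfx wt and blue for Zfx ko, and the diamond with its bar is the mean of both genotypes with its 95% interval. All 6 pairs of Msantd3 and Zmynd11 are above 0 and all 6 of Phf2 below 0, and for Cibar1, Zc3h7b and Smo the wt pairs are above 0 and the ko pairs below.

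Split by genotype, the Myc values went apart for several genes; these values share their error with the choice and carry no test. Smo had a log2 Myc difference of 0.69 in wt and -0.15 in ko, Zc3h7b 0.42 and -0.29, and Cibar1 0.30 and -0.18. In these 3 genes the difference was positive in 3 of 3 wt pairs and negative in 3 of 3 ko pairs, as it was in 125 of 19938 genes (0.627%). For Cibar1 the ko values lie below the array medians, so the size of its ko difference is uncertain. Zmynd11 was the opposite case, with 0.10 in wt and 1.09 in ko, and Msantd3 had 0.50 and 0.93. Phf2 (-0.18 and -0.34), Ptpn9 (-0.03 and -0.37), Dis3l (-0.09 and -0.15) and Lrrc41 (0.17 and 0.26) had the same sign in both genotypes. The SE of each such value was 0.106 to 0.254.

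The partners and relatives of these genes, listed by function, had log2 differences between genotypes of -0.80 to 0.62. In the Hedgehog pathway, in which ligand bound to the receptor Ptch1 frees Smo to act through Sufu and the Gli factors, 23 of 26 listed genes were measured. Of the 23, 1 was lower and 0 higher in ko under each virus, beside 2.94% of all genes lower with GFP and 3.72% with Myc, with a median log2 difference of -0.03 with GFP and 0.01 with Myc, beside medians of -0.0049 and -0.0012 over all genes. The 1 gene was Sufu, the inhibitor that holds the Gli factors: log2 -0.78 with GFP (limma adjusted p = 0.00274) and -0.61 with Myc (adjusted p = 0.00886). Ptch1 had -0.19 (adjusted p = 0.594) and -0.07 (adjusted p = 0.941). With the block, 2 were lower and 1 higher with GFP, where 1420 and 1020 of all 19938 genes were. The mean Myc effect raised 3 of the 23 and lowered 0, beside 13.2% and 8.07% of all genes. Those raised were Ptch1 (log2 0.87, limma adjusted p = 1.13e-04), Sufu (0.34, adjusted p = 0.00884) and Ift88, a cilium transport protein (0.29, adjusted p = 0.0426). The call of Ift88 did not hold without GFP ko 1 (0.0691), GFP ko 3 (0.101), GFP wt 2 (0.0888), GFP wt 3 (0.0917), Myc ko 1 (0.0947), Myc ko 3 (0.0653), Myc wt 1 (0.0993) or Myc wt 3 (0.0894). With the block, the Myc effect also lowered 2 of the 23, where it lowered 2710 of all 19938 genes.

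In the list of the exosome and its helpers, the RNA decay machinery of Dis3l, 21 of 23 genes were measured and 16 were higher with Myc and 0 lower, beside 13.2% and 8.07% of all genes, with a median log2 of 0.42. Among them were Exosc2 (log2 0.65, limma adjusted p = 5.98e-05), Wdr61 (0.43, adjusted p = 1.49e-04), Mtrex (0.50, adjusted p = 1.85e-04) and Exosc4 (0.50, adjusted p = 4.22e-04). Dis3, the catalytic subunit of the nuclear exosome, rose by 0.64 (adjusted p = 6.27e-04), while Dis3l had -0.12 as given above. Cell type markers moved with Myc too: 14 of 15 neutrophil maturation markers were lower (median log2 -1.06), 8 of 15 mast cell and basophil markers were lower (median -0.74) and 5 of 8 erythroid markers were higher (median 0.84), and their part in the Myc values here was not tested. Between genotypes 2 of the 21 were lower under each virus, beside 2.94% of all genes lower with GFP and 3.72% with Myc. They were Exosc2 and Dis3l2 (chosen after its values were seen), lower by 0.34 to 0.40 on the log2 scale. These 2 calls were thin: the count fell to 0 or 1 without any single array other than Myc ko 2 with the GFP virus. With the Myc virus it fell to 0 without Myc ko 1, Myc ko 3, Myc wt 1 or Myc wt 3, and to 1 without GFP ko 3 or any GFP wt array. Among other fits it was 0 with the trended and robust prior (GFP) and with only the groups compared (both viruses), and 1 with arrays centred on their medians (both), with the trended prior (Myc) and with all probe sets (GFP).

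Of the chromatin partners of Phf2 and Zmynd11, histone methylation enzymes and splicing factors, 19 of 22 were measured, and 6 were lower and 0 higher in ko under each virus, beside 2.94% of all genes lower with GFP and 3.72% with Myc. Their medians were -0.10 with GFP and -0.17 with Myc. Kdm2b, a demethylase of the same enzyme superfamily as Phf2, was at -0.64 with GFP (limma adjusted p = 7.75e-04) and -0.53 with Myc (adjusted p = 0.00236). Named after their values were seen, Ehmt2, which writes the mark that Phf2 removes, was at -0.46 (adjusted p = 0.00427) and -0.45 (0.00452), and Setd2, which writes the mark that Zmynd11 reads, at -0.57 (0.0167) and -0.66 (0.00660). The call of Setd2 with GFP did not hold without GFP wt 2 (0.0587) or GFP wt 3 (0.0711), nor with only the groups compared (0.0574), and without GFP wt 3 the count of 6 was 3. With the block 8 were lower under each virus, where 1420 of all 19938 genes were lower with GFP and 1601 with Myc. With the block 2 were higher with GFP and 1 with Myc, beside 1020 and 1207 of all genes. The mean Myc effect raised 7 of the 19 and lowered 1, beside 13.2% and 8.07% of all genes. Among those raised were Eftud2 (log2 0.36, limma adjusted p = 4.32e-04), Setdb1 (0.41, adjusted p = 4.32e-04), Suv39h2 (0.43, adjusted p = 0.00241) and Kdm2b (0.27, adjusted p = 0.00348). With the block the Myc effect lowered 4, where it lowered 2710 of all 19938 genes. Without GFP ko 1, Myc ko 1 or Myc ko 2, or after a second quantile normalization, it lowered 2, and with array weights 4.

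Of the closest relatives, 34 of 35 were measured, with medians of -0.03 (GFP) and -0.01 (Myc) between genotypes. With GFP 4 were lower and 1 higher in ko, beside 2.94% and 1.17% of all genes. With Myc 4 were lower and 2 higher, beside 3.72% and 1.74%. With the block there were 3 higher with GFP and 7 lower with Myc, where 1020 and 1601 of all 19938 genes were. Kdm7a, a demethylase of the same family as Phf2, was higher in ko, by 0.52 with GFP (limma adjusted p = 0.0351) and 0.62 with Myc (adjusted p = 0.0125). Fzd7, a Wnt receptor of the class to which Smo belongs, was at -0.72 (adjusted p = 0.0160) and -0.80 (adjusted p = 0.00766), and Zmynd19 at -0.47 (adjusted p = 0.00526) and -0.31 (adjusted p = 0.0332). The GFP call of Kdm7a did not hold without any single GFP array (0.0547 to 0.130) or Myc wt 2 (0.0541), and that of Fzd7 without GFP ko 3 (0.0615), GFP wt 1 (0.0600) or GFP wt 2 (0.0586). The Myc call of Zmynd19 did not hold without GFP wt 1 (0.0521), Myc ko 1 (0.0966), Myc ko 2 (0.102) or any Myc wt array (0.0833, 0.0921, 0.109), nor with arrays centred on their medians (0.0902) or the trended and robust prior (0.0533). With only the groups compared, the Myc calls of Kdm7a (0.0747) and Fzd7 (0.0523) did not hold, and 1 relative was lower and 0 higher with Myc and 2 lower with GFP. Centring left 2 lower and 1 higher with Myc, the trended prior and the genes above the median intensity each left 1 higher with Myc, and array weights gave 3 higher with GFP. The count of lower relatives went down to 1 or 2 without GFP ko 3 or any GFP wt array with GFP, and without GFP ko 3, GFP wt 1 or any Myc array with Myc. The count of higher relatives with Myc was 1 without GFP ko 1, GFP ko 2, GFP wt 3 or any Myc array. The mean Myc effect raised 5 of the 34 relatives and lowered 3, beside 13.2% and 8.07% of all genes. With the block it raised 8 and lowered 7, where it raised 3670 and lowered 2710 of all 19938 genes. Without GFP ko 3 or GFP wt 3 it raised 3 relatives. It lowered 7 with array weights and 5 among genes above the median intensity.

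The list for Lrrc41 held cullin and elongin ligase subunits and many other substrate receptors, such as Asb13 and Cish. Of these genes 22 of 25 were measured, with medians of -0.03 (GFP) and -0.05 (Myc). Under each virus 1 was lower in ko and 0 higher, beside 2.94% of all genes lower with GFP and 3.72% with Myc. With the block 4 were lower and 1 higher with GFP, where 1420 and 1020 of all 19938 genes were. With Myc the block gave 3 lower and 1 higher, beside 1601 and 1207 of all genes. Asb13, a substrate receptor like Lrrc41, was at -0.37 with GFP (limma adjusted p = 0.0483) and -0.58 with Myc (adjusted p = 0.00452). The count of 1 with GFP became 0 without any single array other than GFP ko 1, GFP wt 1 and Myc ko 1, and without GFP wt 1 the adjusted p of Asb13 was 0.152. Nor did this call hold after a second quantile normalization (0.0631), with the trended and robust prior (0.0848), with all probe sets (0.0507) or with only the groups compared (0.115). Array weights gave 2 lower with GFP and 1 higher with Myc. The mean Myc effect raised 2 of the 22 and lowered 1, beside 13.2% and 8.07% of all genes. It raised Asb13 (log2 0.53, limma adjusted p = 2.83e-04) and Cul2 (0.37, adjusted p = 0.0281) and lowered Cish (-0.58, adjusted p = 0.00997). With the block 5 rose and 4 fell, where 3670 and 2710 of all 19938 genes did. The call of Cul2 did not hold without GFP wt 1, GFP wt 3, Myc ko 2, Myc ko 3, Myc wt 2 or Myc wt 3 (0.0585 to 0.0709), which left 1 raised, and 2 fell without GFP ko 2, Myc ko 2 or Myc wt 3, or with array weights. Zfx and its relatives Zfy1, Zfy2 and Zfp711, 4 of 4 measured, had 0 genes past the limma threshold in any of these comparisons, also with the block.

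**Figure D4:**
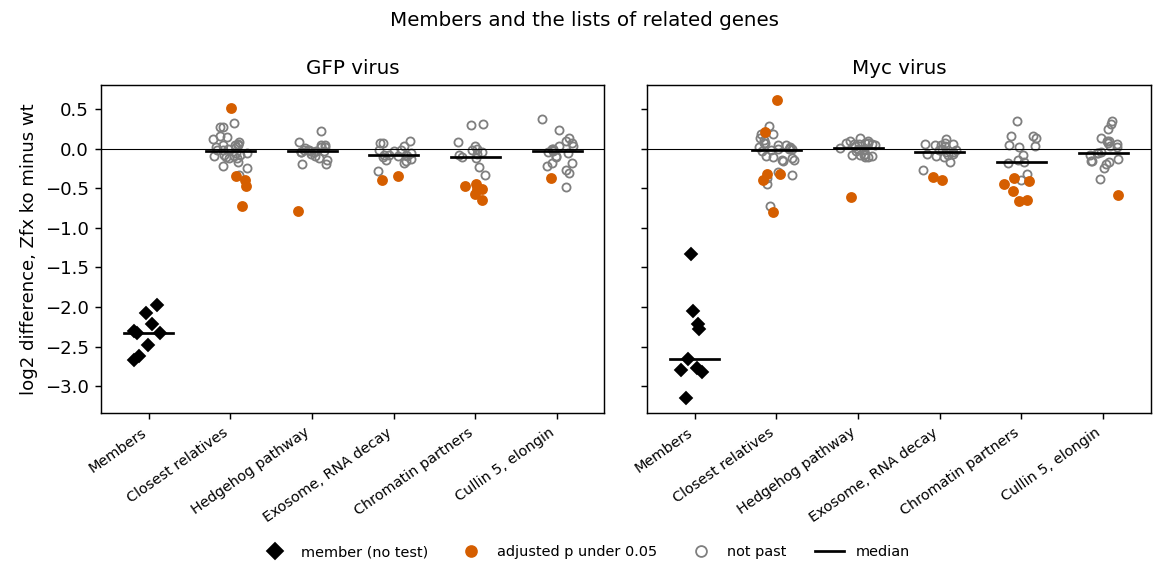
Log2 difference between Zfx ko and wt of the 9 genes (diamonds, no test) and of 5 lists of relatives and partners, for each virus; filled circles passed an adjusted p of 0.05, open circles did not, and lines are medians. The 9 genes lie at -1.33 or lower, and the lists have medians between -0.17 and 0.01 with single genes from -0.80 to 0.62.

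Markers of blood cell types were read beside these values. Levels of different probe sets cannot be set against each other, so each list is compared with itself across groups. The primary granule genes of myeloid progenitors (Mpo, Elane and others, 5 of 5 measured) had 0 past the limma threshold with GFP. With Myc 1 was lower in ko, beside 3.72% of all genes. Their summed intensity was 45669 to 69975 over the 12 arrays. The 4 measured B cell markers and the 4 measured T cell markers had 0 past the threshold in these comparisons. Of 15 mast cell and basophil markers, all measured, 3 were lower in ko with GFP and 5 with Myc, beside 2.94% and 3.72% of all genes, and 0 were higher, with medians of -0.67 and -1.03. Their summed intensity was 24924 to 32134 in GFP wt, 14276 to 20320 in GFP ko, 12010 to 27248 in Myc wt and 6461 to 10353 in Myc ko. Megakaryocyte markers (5 of 7 measured) had median log2 differences of 1.47 and 1.40 with 0 past the threshold. Their sums were 7139.5 to 13862 in GFP wt and 20528 to 26772 in GFP ko, which did not overlap, and 1762.5 to 7135 in Myc wt and 5367 to 16221 in Myc ko, which did. Erythroid markers (8 of 11 measured) had 0 past the threshold with GFP and 4 higher with Myc, beside 1.74% of all genes higher with Myc. Neutrophil maturation markers (15 of 15 measured) had 1 higher with GFP, beside 1.17% of all genes. With Myc 1 was higher and 1 lower, beside 1.74% and 3.72%. Progenitor markers (6 of 6 measured) had 0 past the threshold with GFP and 1 lower with Myc, beside 3.72% of all genes. The monocyte and eosinophil markers had 0 under either virus. The part of these markers in the falls of the 9 genes was not tested.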

How the data were processed

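Gene expression was measured on 12 arrays. The deposited values are intensities on a linear scale, 1 for each probe set on each array, which the authors made with RMA per the submitters' processing notes; its software, version and genome build are not named in the labels. RMA makes arrays comparable and dims large ratios near background. Groups and replicate numbers came from the sample titles. Gene symbols came from the platform's probe table (21789 probe sets with 1 symbol, 1621 with several, 12146 not listed), and 21698 matched RefSeq by Entrez identifier. For each of 19938 genes the probe set with the highest mean over 12 arrays was kept.

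Log2 of the intensities was fitted with limma 3.58.1 (lmFit and eBayes, R 4.3.3), with a mean for each of 4 groups, 8 residual degrees of freedom and Benjamini-Hochberg adjustment over all 19938 genes, at 0.05. The number of arrays limits the precision. The contrasts were Zfx ko minus wt under each virus, which chose the 9 genes and so give only descriptions of them. The other contrast, Myc minus GFP averaged over genotypes, was tested. It is independent of both only if all groups have equal spread. The fit was tested on simulated data.

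The genes and lists were chosen with earlier results of these data known. Besides the 9 genes and Zfx, the text names the 3 unchosen genes with the largest fall, the 3 just short of 4-fold, the 5 most alike in profile, and up to 4 called genes per list with the lowest adjusted p; predicted genes, Rik genes, microRNAs and small nucleolar RNAs were left out, and genes named beyond this are marked. Listed symbols not found among the genes were looked up as RefSeq synonyms. Some lists hold both the old and the new name of a gene, which counts as measured only once. Part of the gap between listed and measured numbers is therefore repeated names.

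Arrays of equal replicate number deviated together from their group means: the 18 pairs correlated at 0.4008 to 0.8484 (median 0.6394), against a median of -0.4216 over 36 pairs of unequal number, and 12 of 12 arrays were closest to their own number. The numbers were read as pairing the arrays, although the labels do not say what they mark. A fit with the number as a block is given beside results whose call it alters or whose count it shifts by over 1.5 times. The other alternatives were array weights, a robust prior with a trend, quantile normalization applied again, arrays centred on the median, only genes above the median intensity, all probe sets, only the groups compared, and each array left out in turn. Promoters came from RefSeq (GRCm38.p6); probe positions and proteins were not used here.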

Additional observations from a re-analysis of the deposited data

Results flagged for a closer look

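In 3 of the 9 genes the Myc effect had opposite signs in the genotypes, in every same-numbered pair, positive in wt and negative in ko, as in 0.627% of all genes. For Smo the log2 differences between the Myc and GFP virus were 0.81, 0.88 and 0.40 in the wt pairs and -0.12, -0.28 and -0.04 in the ko pairs, and the ko effect minus the wt effect was -0.84. Zc3h7b had 0.51, 0.26 and 0.50 in wt and -0.27, -0.31 and -0.29 in ko, a difference of the effects of -0.72. Cibar1 had 0.10, 0.69 and 0.10 in wt and -0.15, -0.23 and -0.15 in ko, a difference of -0.47; its ko signal lay below the median of every array, so the ko values are uncertain in size. The difference was not tested for these 3 genes, because it shares its error with the values that chose them. Among the relatives, the phosphatase Ptpn6 had a difference between genotypes above 0 in 3 of 3 pairs with GFP (mean log2 0.05) and below 0 in 3 of 3 pairs with Myc (mean -0.12), a difference of -0.17 (limma interaction, adjusted p = 1.0).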

How the results depend on the processing

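All 360 differences between genotypes of the 9 genes, over 20 alternatives, were negative and moved by less than 1 SD of the replicates, with falls of 1.96-fold to 9.84-fold. The genes were chosen for large falls on these same arrays, so the sign was fixed by the choice and carries no test. With the replicate block, 2440 genes passed between genotypes with GFP, 2808 with Myc and 6380 for the mean Myc effect, against 819, 1089 and 4236 without it, and 6 of the 9 genes passed the Myc effect, against 3. Array weights gave 1610 genes with GFP, and a fit of only the groups compared gave 562 with Myc. With each array left out in turn, 410 to 802 genes passed with GFP, 578 to 1098 with Myc and 3538 to 4154 for the mean Myc effect, and 1 to 3 of the 9 genes passed the last. The mean Myc difference of Cibar1 turned from 0.06 to -0.055 without Myc wt array 2 (-0.055 to 0.14 over arrays left out), and was not past the threshold in either case. Over 1281 values of the called genes of the lists, 1076 stayed past the threshold, 205 did not, 167 of these with an array left out, and 0 reversed. The cause of these changes was not tested. The block assumes that equal numbers mark a shared source. The 9 genes each rest on 1 probe set, and signals near the array background understate folds.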
